A study of Homo sapiens with 6 samples.

Results

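The nuclear-encoded genes of oxidative phosphorylation were compared between 2 human lymphoma B-cell lines, LY19WT and LY19Y646F, by RNA sequencing. The members were chosen by name: symbols starting with NDUFA, NDUFB, NDUFC, NDUFS, NDUFV, UQCR, SDH or ATP5, or with COX followed by a digit from 4 to 8, and CYC1, with pseudogenes left out. Of 101 symbols that this rule found in the library tables, 56 were also in the authors' table of the comparison between the lines and are the members, out of 13674 genes in that table. They are 55 protein-coding genes and 1 antisense RNA, NDUFB2-AS1. By complex they are 22 subunits of complex I, 2 of complex II, 6 of complex III, 7 of complex IV and 10 of complex V, with 5 assembly factors of complex I, 1 of complex II, and the pair ATP5S and ATP5SL.

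LY19WT is labelled as EZH2 wild type. LY19Y646F is labelled as constitutively expressing EZH2 with the Y646F substitution from a CMV promoter, a strong viral promoter, so the introduced gene is not under its own control. The EZH2 protein is the enzyme of the Polycomb complex PRC2 and methylates histone H3 at lysine 27, and substitutions at this tyrosine recur in germinal-centre lymphomas. Both lines were untreated and at passages 10 to 15, and each has 3 libraries called biological replicates. Nothing in the labels says that the replicates came from separate cultures or separate clones, so the p-values measure only the spread between these libraries. With 1 line per EZH2 state, the EZH2 form cannot be told apart from any other difference between the lines.

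Oxidative phosphorylation is carried out in the inner mitochondrial membrane. Complexes I and II pass electrons from NADH and succinate to ubiquinone, complex III hands them to cytochrome c, and complex IV reduces oxygen. Complexes I, III and IV pump protons, and complex V, the ATP synthase, uses the gradient to make ATP. Most subunits are encoded in the nucleus and imported, complex II entirely so, and dedicated assembly factors put the complexes together. Many promoters of these genes are known to be bound by NRF1 and by GABP, a factor of the ETS family.

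The stretches of 250 bases before the RefSeq gene start (assembly GRCh38.p14) are shown for the members with the smallest adjusted p in complex II (SDHB), among the assembly factors (NDUFAF4) and in complex V (ATP5H, now ATP5PD), and for NDUFB1, called lower. Each reads 5′ to 3′ on the gene's strand, which is the minus strand for all 4, and capitals mark matches to the NRF1 core site GCATGCGC or the ETS core CCGGAAG on either strand.
SDHB chr1:17054033-17054282: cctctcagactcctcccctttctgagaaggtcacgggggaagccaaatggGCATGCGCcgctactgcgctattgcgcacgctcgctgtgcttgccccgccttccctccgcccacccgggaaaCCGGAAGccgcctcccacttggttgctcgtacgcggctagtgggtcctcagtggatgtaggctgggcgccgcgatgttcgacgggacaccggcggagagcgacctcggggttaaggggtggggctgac
NDUFAF4 chr6:96897892-96898141: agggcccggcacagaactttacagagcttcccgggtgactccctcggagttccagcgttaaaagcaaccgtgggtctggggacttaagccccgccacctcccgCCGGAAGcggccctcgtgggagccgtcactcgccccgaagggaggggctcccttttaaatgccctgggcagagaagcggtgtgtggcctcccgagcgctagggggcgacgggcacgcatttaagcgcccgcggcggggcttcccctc
ATP5H chr17:75046970-75047219: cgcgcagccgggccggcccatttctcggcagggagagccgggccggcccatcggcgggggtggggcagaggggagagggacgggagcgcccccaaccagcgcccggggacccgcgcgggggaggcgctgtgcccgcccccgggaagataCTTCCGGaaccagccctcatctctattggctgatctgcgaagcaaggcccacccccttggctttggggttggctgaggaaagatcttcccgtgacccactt
NDUFB1 chr14:92121707-92121956: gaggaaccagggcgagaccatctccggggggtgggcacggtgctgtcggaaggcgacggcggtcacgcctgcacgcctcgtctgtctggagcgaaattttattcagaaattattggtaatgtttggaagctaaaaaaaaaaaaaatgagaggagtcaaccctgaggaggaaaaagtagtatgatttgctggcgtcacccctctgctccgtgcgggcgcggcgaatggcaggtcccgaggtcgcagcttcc
The SDHB stretch holds an NRF1 core site starting at -200 and an ETS core at -128, NDUFAF4 an ETS core at -147, and ATP5H the reverse complement of the ETS core at -101. NDUFB1 holds none of the searched motifs in this window. The same is true of NDUFA4, NDUFA12, NDUFB3, NDUFAF2, UQCRFS1 and ATP5G1, which were called higher and are not shown. Positions are counted back from the start site.

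Promoters of the table, which run from 250 bases before to 50 after the start, matched 44 of the 55 coding members. The NRF1 core site GCATGCGC was in 27.3% of them against 3.27% of 27305 promoters of the same length, and the NRF1 palindrome, which is the core site with GC before it, in 9.09% against 1.36%. The ETS core CCGGAAG was in 25.0% against 10.7% and the YY1 core AAGATGGC in 13.6% against 3.03%. TATAAA was in 6.82% against 11.95%, and the E box CACGTG in 9.09% against 7.43%. All searches covered both strands. The 27305 promoters were neither filtered to protein-coding genes nor matched to the members for base content. Of the 9 members called higher that have a promoter in the table, 2 held the NRF1 core site (SDHB and NDUFAF4), 3 the ETS core (these and ATP5H), and 0 the palindrome.

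Expression is given as FPKM, fragments per kilobase of transcript scaled to the number of mapped fragments, so that levels can be set beside each other between genes. In each library the authors' program assembled loci anew, and a locus row can name several genes. A member was read only where it is the only protein-coding gene of its row in all 6 libraries, which held for 42 of the 56, and 41 of these averaged 0.5 FPKM or more and were tested. Differences are LY19Y646F minus LY19WT on the log2(FPKM + 1) scale, which understates the change of low genes. A gene was called at an adjusted p under 0.05 in limma, adjusted over all 11370 tested genes.

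The summed FPKM of the libraries was 804303 to 1018151, and read counts are not in the values, so depth per library is unknown. In LY19WT replicate 3 the 10 largest rows held 27.5% of the summed FPKM, against 5.73% to 9.41% in the other libraries. The LY19WT libraries had EZH2 itself at 60.6, 76.5 and 74.7 FPKM and the LY19Y646F libraries at 70.2, 80.4 and 93.5, values that overlap and do not tell the mutant form from the cell's own. Of the B-lineage markers, CD79B was at 160 ± 18.6 FPKM in LY19WT and 309 ± 29.8 in LY19Y646F (SD, n = 3), and EBF1 at 43.5 ± 1.08 and 5.20 ± 0.367, so one was called higher and the other lower. MS4A1, which encodes CD20, was at 0.0688 to 0.140 FPKM in LY19WT and 83.1 to 118 in LY19Y646F, where MS4A5 shares its row in replicates 2 and 3. The labels do not say whether one line was derived from the other, and these markers differ widely between them. The summed FPKM of 8 T and NK cell markers was 0.685 to 2.93 over the libraries and that of 8 stromal and epithelial markers 0.200 to 0.840. The 8 myeloid markers, mainly LYZ and CD33, summed to 15.4 to 21.7 FPKM in LY19WT and 0.655 to 0.972 in LY19Y646F, and their part in the results below was not tested. In bulk RNA, fewer cells of a type and less RNA per cell cannot be told apart.

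More members were higher in LY19Y646F than lower. Of the 41 tested, 11 were called higher, 1 was called lower and 29 were not called. The background over all tested genes was 32.5% called, with 16.3% higher and 16.2% lower. With library weights in the fit, 18 members were called higher and 3 lower, where 27% and 25.7% of all tested genes were. By libraries that do not overlap, 15 of the 41 were higher and 2 lower, where 24.3% of all tested genes were higher, 23.8% lower and 48.1% either. A positive difference was seen for 28 of the 41 members and for 48.9% of all tested genes, and the members' median difference was 0.41 against -0.02 over all tested genes. In the authors' deposited table, 42 of the 56 members were higher in LY19Y646F, where 49.7% of its genes were.

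The summed FPKM of the 41 tested members was 8836, 7730 and 7818 in the LY19WT libraries and 12069, 11888 and 12336 in the LY19Y646F libraries. The sums do not overlap, and the ratio of the means was 1.49. Abundant genes weigh most in these sums: ATP5B, the catalytic beta subunit of the ATP synthase, had the highest mean over the 6 libraries, 1774 FPKM, followed by COX6C at 746, ATP5G1 at 693 and UQCRH at 672 FPKM.

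**Figure D1:**
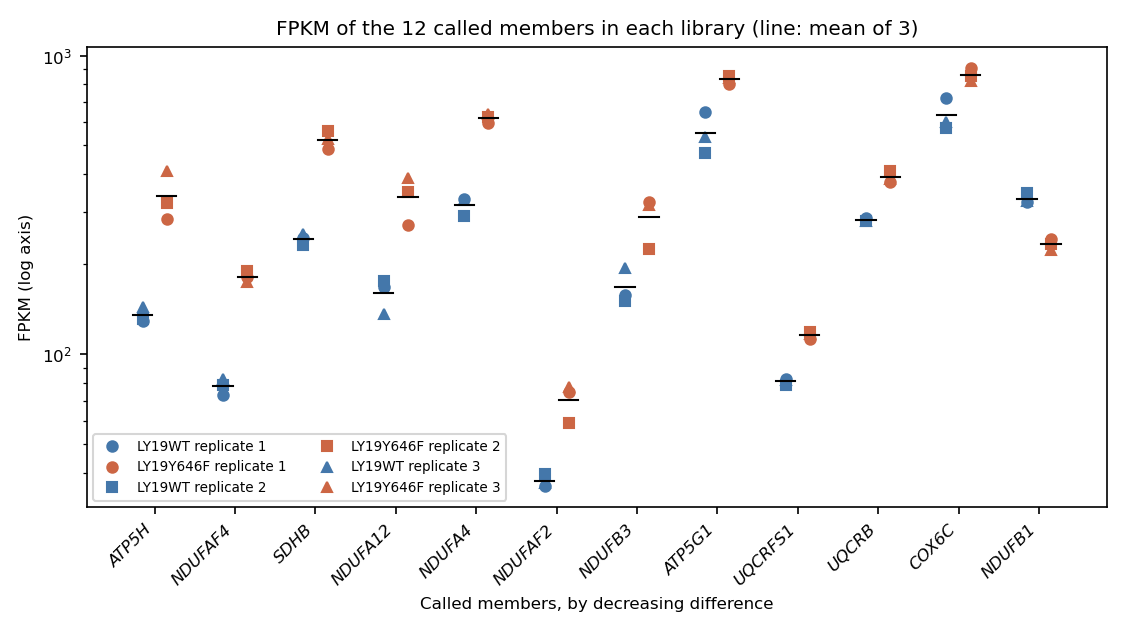
FPKM on a log axis of the 12 called members in each library (marker shape gives the replicate number, colour the line, and the short bar the mean of 3 libraries). The libraries of the lines do not overlap for any of the 12, and NDUFB1 is the only one of them with the LY19Y646F libraries below those of LY19WT.

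Complex I, the NADH dehydrogenase and the largest complex of the chain, had calls in both directions. Of its 14 tested subunits 2 were called higher and 1 lower, where the background of 16.3% and 16.2% applies, 6 differences were positive and 8 negative, and the median was -0.15. Its summed FPKM was 1774 ± 206 in LY19WT and 1999 ± 318 in LY19Y646F (SD, n = 3), a ratio of 1.13. The sign of the median was not stable: it was 0.10, 0.02 and 0.07 without LY19WT replicate 1, LY19Y646F replicate 2 and LY19Y646F replicate 3. In the authors' deposited table the median was 0.33, with 14 higher and 8 lower. That median is over all 22 subunits, 8 of which could not be read in the libraries.

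NDUFA12, an accessory subunit, was at 168, 176 and 136 FPKM in LY19WT and 271, 348 and 390 in LY19Y646F. Every LY19Y646F library lay above every LY19WT library, and NDUFA12 was called higher by 1.06 (SE 0.18, limma adjusted p = 0.0083). The authors' deposited table has NDUFA12 at 196 and 275 FPKM, a smaller difference of 0.48. NDUFB3, another accessory subunit, was at 158, 150 and 195 FPKM against 323, 225 and 316, without overlap. Its difference was 0.77 (SE 0.19, limma adjusted p = 0.029), and the call was lost without LY19WT replicate 1 or 2 or LY19Y646F replicate 1 or 3, with adjusted p from 0.069 to 0.097.

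NDUFB1, a small accessory subunit, moved the other way. It was at 322, 346 and 325 FPKM in LY19WT and 244, 234 and 224 in LY19Y646F, and was called lower by limma (difference -0.50, SE 0.075, adjusted p = 0.0054). Its LY19WT libraries all lay above its LY19Y646F libraries. It is the only member called lower.

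The subunits next below the threshold were NDUFA10, with a difference of 0.51 (limma adjusted p = 0.053), and NDUFA8, with 0.44 (adjusted p = 0.060), both with libraries that do not overlap and both called when LY19WT replicate 1 was left out. NDUFB9, the most abundant tested subunit of the complex at a mean of 364 FPKM, differed by 0.05 (95% interval -0.19 to 0.30). NDUFS4, which is needed for the stability of the NADH-oxidising module, differed by -0.16 (95% interval -0.65 to 0.33). Both intervals span 0 and leave out a doubling in either direction.

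Among the assembly factors of complex I, proteins that build the complex without staying in it, 2 of 4 tested were called higher. The share over all tested genes was 16.3%. NDUFAF4 was at 73.0, 79.1 and 83.0 FPKM in LY19WT and 181, 190 and 175 in LY19Y646F. The lines are far apart relative to the spread within each, and its difference of 1.21 had the smallest adjusted p of all members (SE 0.086, limma adjusted p = 0.00037). NDUFAF2 was at 36.1, 39.8 and 37.0 FPKM against 75.1, 59.0 and 77.5, also without overlap (difference 0.88, SE 0.13, limma adjusted p = 0.0057).

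The other assembly factors could hardly be read. NDUFAF1 was at 17.4, 25.9 and 24.5 FPKM in LY19WT and 12.8, 0 and 16.0 in LY19Y646F, below in every library but not called, with a 95% interval of the difference from -4.83 to 1.00. NDUFAF5 is listed at 0 in 5 libraries and at 78.4 FPKM in LY19Y646F replicate 3, whereas the authors' deposited table gives 40.3 and 70.2 FPKM for the lines. NDUFAF7 is listed at 0 in all 6 libraries, where the authors' deposited table gives 30.4 FPKM for LY19WT and 31.8 for LY19Y646F.

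Complex II, succinate dehydrogenase, links the citric acid cycle to the chain. SDHB, its iron-sulphur subunit, was at 245, 233 and 253 FPKM in LY19WT and 486, 560 and 524 in LY19Y646F. The groups are well separated, and SDHB was called higher by 1.10 (SE 0.085, limma adjusted p = 0.00051). In the authors' table its row spans 17345214 to 17380665 on chromosome 1 of hg19.

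SDHA, the flavoprotein subunit, was at 30.4, 70.0 and 58.7 FPKM in LY19WT and 65.5, 116 and 123 in LY19Y646F. The lowest LY19Y646F library lies below the highest LY19WT library, and the difference of 0.95 was not called (95% interval -0.07 to 1.97, limma adjusted p = 0.14). The rows of its near-identical copies SDHAP1, SDHAP2 and SDHAP3 summed to 129% of SDHA's mean in LY19WT and 25.6% in LY19Y646F, so how reads were shared between SDHA and its copies is uncertain. The assembly factor SDHAF1 was at 4.27 to 7.78 FPKM against 6.78 to 16.1, and was not called. SDHC, another subunit of complex II but outside the authors' table, differed by -0.05 (SE 0.38) and was not called (limma adjusted p = 0.94).

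Complex III, the cytochrome bc1 complex, had 5 tested subunits, all with positive differences, of which 2 were called higher. Its other member, UQCRC1, had a merged row and was not tested. The UQCRC1 rows were lower in LY19Y646F, and the authors' deposited table has 5 members of the complex higher and 1 lower. Over all tested genes 48.9% had a positive difference and 16.3% were called higher. The differences of CYC1 and UQCR10 turned negative without LY19Y646F replicate 1. UQCRFS1, the Rieske iron-sulphur protein, was at 83.0, 79.0 and 82.3 FPKM in LY19WT and 113, 119 and 117 in LY19Y646F. The libraries within each line lie close together, and the difference was 0.51 (SE 0.074, limma adjusted p = 0.0048). Rows of its pseudogenes held 22.2% of its level in LY19WT and 20.1% in LY19Y646F.

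UQCRB, a small subunit near the ubiquinone site, was at 286, 279 and 280 FPKM against 378, 411 and 386, and was called higher by 0.47 (SE 0.070, limma adjusted p = 0.0052). UQCRH, the hinge protein and the most abundant member of complex III, was at 509, 630 and 562 FPKM against 812, 850 and 670. Its libraries do not overlap, and it stayed just outside the threshold, with 0.45 and a limma adjusted p of 0.052, and passed without LY19Y646F replicate 3 (adjusted p = 0.037). The summed FPKM of the 5 tested subunits, without UQCRC1, was 1079 ± 42.4 in LY19WT and 1487 ± 190 in LY19Y646F (SD, n = 3). Their median difference was 0.45.

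Complex IV, cytochrome c oxidase, had 2 of 6 tested members called higher, against 16.3% of all tested genes. NDUFA4, named for complex I but a subunit of complex IV and counted here with it, was at 330, 290 and 328 FPKM in LY19WT and 593, 624 and 637 in LY19Y646F. Its groups are widely separated, with a difference of 0.97 (SE 0.084, limma adjusted p = 0.00077). The authors' deposited table has NDUFA4 at 454 and 674 FPKM, a smaller difference of 0.57. COX6C, the most abundant member of the complex, was at 723, 573 and 598 FPKM against 909, 853 and 822, without overlap.

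The difference of COX6C was 0.45 (SE 0.11, limma adjusted p = 0.031), and the call was lost without any single library other than LY19WT replicate 1, with adjusted p from 0.068 to 0.10. COX4I1, the subunit that carries the regulatory isoform switch, was at 717, 382 and 282 FPKM against 891, 554 and 569, overlapping and not called. COX7A2L, a factor of supercomplex assembly, was at 84.1 ± 4.85 FPKM in LY19WT and 83.4 ± 6.96 in LY19Y646F (SD, n = 3), and the 95% interval of its difference, -0.27 to 0.24, leaves out a doubling in either direction.

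Tissue-restricted isoforms of complex IV had values at or near 0. COX4I2, COX6A2 and COX7B2, which stand in for the common forms in lung, muscle or testis, are listed at 0 in every library, and COX7A1, the heart and muscle form, reached at most 0.0967 FPKM. None of these is a member. NDUFA4L2, whose row is shared with another coding gene, is also listed at 0. A listed 0 does not show lack of expression here, since BCS1L, an assembly factor of complex III, is at 0 in all 6 libraries and at 73.5 and 96.4 FPKM in the authors' deposited table.

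Complex V had the largest gain in summed FPKM in absolute terms, from 2946 ± 174 in LY19WT to 4968 ± 731 in LY19Y646F (SD, n = 3). Of its 8 tested members 2 were called higher, where 16.3% of all tested genes were. ATP5H, the d subunit of the peripheral stalk, was at 129, 132 and 144 FPKM against 283, 321 and 410. The groups do not overlap, and its difference of 1.30 was the largest among the called members (SE 0.16, limma adjusted p = 0.0024). ATP5B was at 967, 1056 and 1436 FPKM in LY19WT and 1324, 2684 and 3177 in LY19Y646F. It makes up most of the gain, but LY19Y646F replicate 1 lies below LY19WT replicate 3, and the difference of 0.98 was not called (limma adjusted p = 0.11).

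Without LY19Y646F replicate 1, ATP5B differed by 1.36 and passed (limma adjusted p = 0.012). ATP5C1, the gamma subunit, was at 525, 584 and 495 FPKM against 642, 613 and 614, without overlap, and differed by 0.22 (95% interval 0.004 to 0.44, adjusted p = 0.11). ATP5J, a stalk subunit known as coupling factor 6, differed by 0.19 (95% interval -0.05 to 0.43). ATP5L2, a copy of the g subunit gene, stayed near 1 FPKM, at 0.806 to 1.14 in LY19WT and 0.831 to 1.11 in LY19Y646F.

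**Figure D2:**
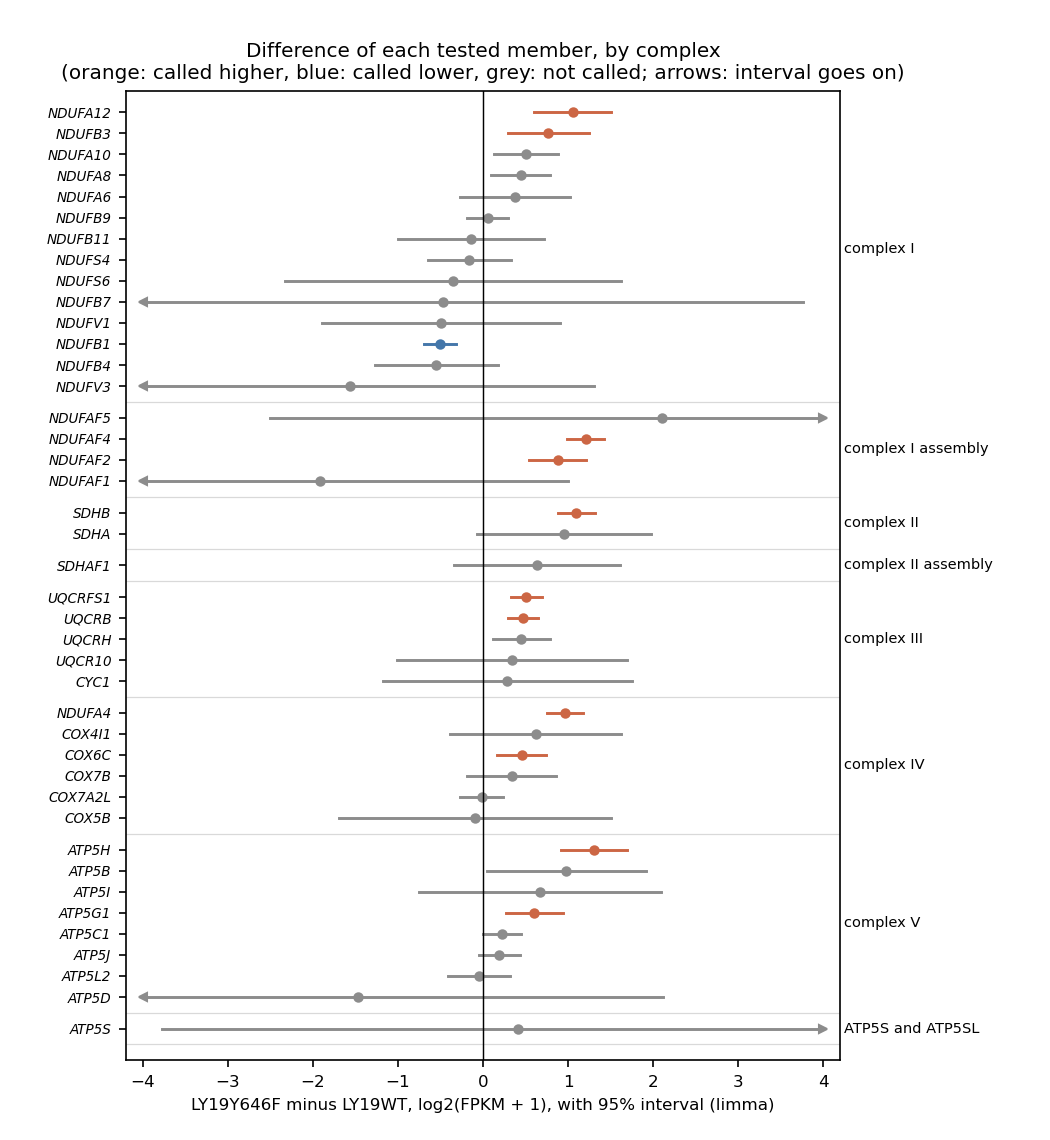
Difference of each of the 41 tested members, LY19Y646F minus LY19WT on the log2(FPKM + 1) scale, with its 95% interval from limma, grouped by complex (orange called higher, blue called lower, grey not called; arrows mark intervals that run past the axis). Complex III has 5 of 5 differences above 0, complex I has 6 of 14, and the widest intervals belong to members that are not called.

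The c subunit of the ATP synthase, which forms the rotor ring, is encoded by 3 genes whose mature proteins are identical and which differ in their import sequences. ATP5G1, the only member among them, was at 649, 472 and 535 FPKM in LY19WT and 804, 851 and 844 in LY19Y646F. It was called higher by 0.60 (SE 0.13, limma adjusted p = 0.020), a call lost without replicate 2 or 3 of either line, with adjusted p from 0.051 to 0.072. ATP5G2, outside the authors' table, was at 518, 571 and 388 FPKM against 240, 306 and 179, and was called lower by limma (difference -1.04, SE 0.25, adjusted p = 0.028).

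ATP5G3 differed by 0.44 and was not called (limma adjusted p = 0.29). The 3 genes together were at 1402 ± 189 FPKM in LY19WT and 1569 ± 163 in LY19Y646F (SD, n = 3), sums that overlap. The share of ATP5G1 in them was 40.2%, 35.1% and 43.0% in LY19WT and 46.7%, 53.5% and 60.4% in LY19Y646F, without overlap. ATP5G2 was the only gene called among the 6 tested of the 45 symbols that match the name rule but are not in the authors' table. Over all tested genes 32.5% were called. Beside ATP5G3 and SDHC, those not called were NDUFB5 (0.79), COX7C (0.13) and NDUFS8 (-1.46).

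Merged rows hid 14 members. Among them, ATP5A1 (with PSTPIP2), ATP5SL (B3GNT8), NDUFA1 (AKAP14), NDUFA5 (IQUB), NDUFAB1 (PALB2), NDUFAF7 (GPATCH11), NDUFS7 (MUM1) and UQCRC1 (SHISA5) shared a row with another coding gene in 1 library each. COX6B1 (UPK1A), NDUFA2 (DND1 and HARS) and NDUFS5 (AKIRIN1, or KIAA0754 and MACF1) did so in 2 libraries, ATP5E (SLMO2) in 3, and NDUFC2 (KCTD14 and ALG8 among others) in all 6. A value of a merged row belongs to the locus and not to the member alone.

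COX6B1, a complex IV subunit and the highest of these by level, had rows at 641, 478 and 446 FPKM in LY19WT and 822, 826 and 727 in LY19Y646F, merged in LY19Y646F replicates 1 and 2. ATP5A1, the alpha subunit of the ATP synthase, had rows at 450, 466 and 418 FPKM in LY19WT and 707, 796 and 768 in LY19Y646F, with only LY19WT replicate 1 merged. NDUFA5, a complex I subunit, was at 89.3, 71.6 and 83.3 FPKM against 157, 178 and 191, though pseudogene rows held 33.2% and 24.6% of its level in the lines. NDUFAB1, the mitochondrial acyl carrier protein, was at 177, 162 and 190 FPKM against 299, 285 and 251. The rows of these 4 do not overlap between the lines, and neither do those of NDUFA1 and NDUFS5, also higher in LY19Y646F. Of all genes tested in the main fit, 24.3% were higher without overlap and 23.8% lower. UQCRC1, a core protein of complex III, ran the other way, also without overlap, at 344, 197 and 179 FPKM against 174, 107 and 96.9. The authors' deposited table has it at 245 and 135 FPKM.

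With merged rows counted at their full value, 54 members entered the fit and 16 were called higher and 1 lower, where 13.2% of all genes in that fit were called higher and 12.9% lower. The 5 gained were ATP5A1 (0.77, limma adjusted p = 0.0027), NDUFA5 (1.10, adjusted p = 0.0033), NDUFAB1 (0.65, adjusted p = 0.011), NDUFS5 (0.30, adjusted p = 0.035) and COX6B1 (0.62, adjusted p = 0.047). The merged rows of NDUFA5, NDUFAB1, NDUFS5 and COX6B1 were all in LY19Y646F libraries, where the other gene adds to the value. That of ATP5A1 was in LY19WT. For NDUFS5 the authors' deposited table gives 316 FPKM in LY19WT and 333 in LY19Y646F. The library tables and the authors' deposited table part most for NDUFC2, whose merged row was at 154 to 185 FPKM in LY19WT where the authors' table lists 0.048 FPKM. NDUFA2 is listed at 0 in 5 of the libraries, and the authors' deposited table gives 47.3 and 64.1 FPKM.

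**Figure D3:**
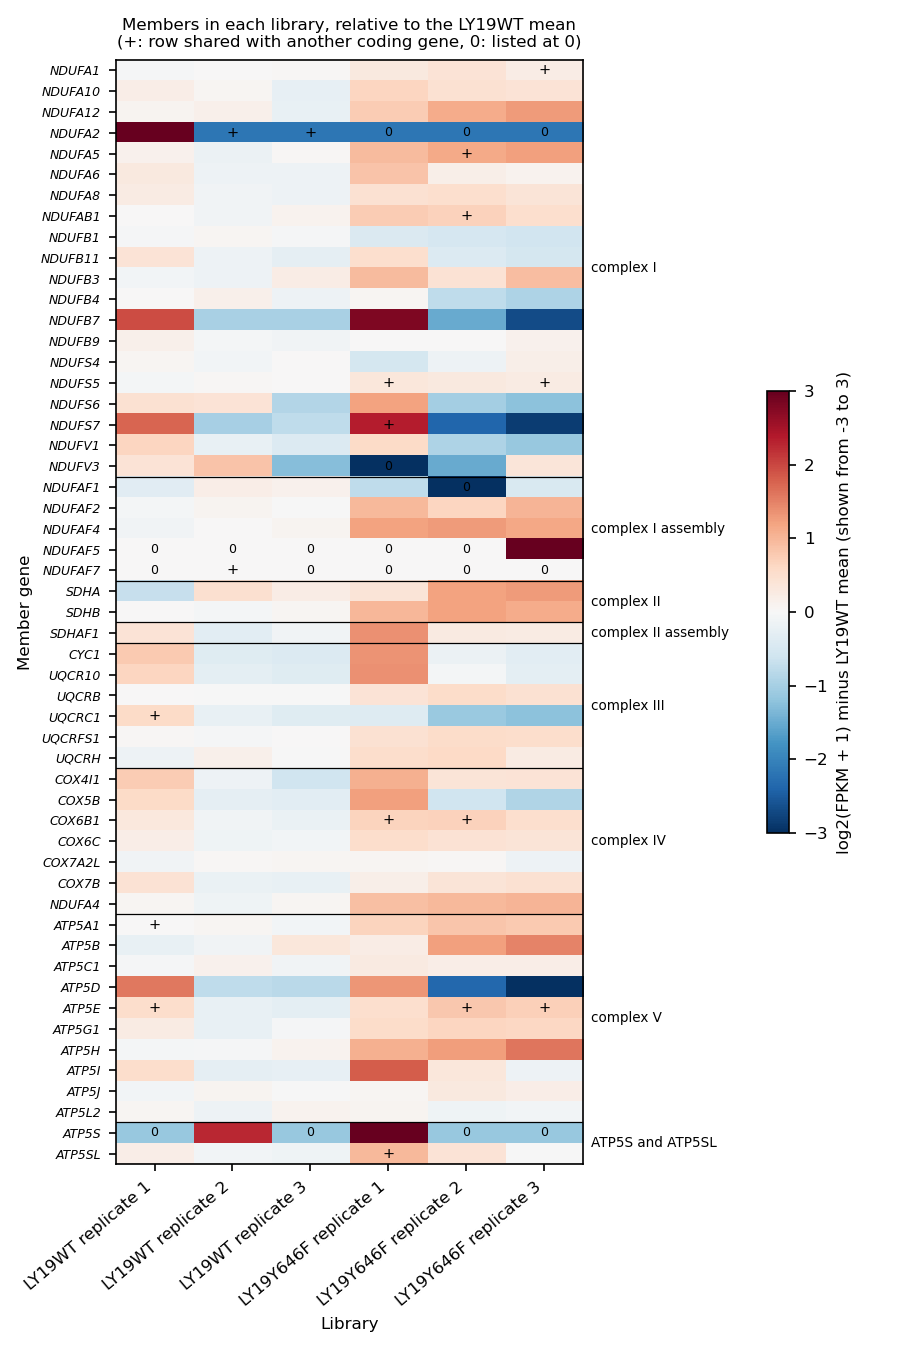
Members whose row is shared with another coding gene in at most 3 libraries, by library, as log2(FPKM + 1) minus the LY19WT mean of the member (colour scale from -3 to 3; a plus sign marks a row shared with another coding gene, and 0 a value listed at 0). The LY19Y646F columns are mostly above 0, and NDUFB7, ATP5D and NDUFS7 stand high in replicate 1 of both lines.

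Replicate 1 of both lines stood apart for a subset of members. NDUFB7, a complex I subunit, was at 118, 14.5 and 14.4 FPKM in LY19WT and 210, 9.73 and 3.75 in LY19Y646F, so that replicate 1 was 8.16-fold and 31.1-fold above the mean of the other libraries of its line. ATP5D, the delta subunit of the ATP synthase, was at 83.5, 15.5 and 15.1 FPKM against 70.0, 4.55 and 1.68. CYC1, cytochrome c1, was at 109, 49.4 and 47.2 FPKM against 164, 56.4 and 50.4. In all 3 the gap between replicates of a line is larger than that between the lines, and none was called.

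Replicate 1 was the highest library in both lines for 14 of the 41 tested members, or 34.1%, and for 20.6% of all tested genes. Among the 37 tested members with no library at 0, the shift of replicate 1 followed the GC content of the gene's coding transcripts, with Pearson's r of 0.70 in LY19WT and 0.72 in LY19Y646F (Spearman's rho 0.59 and 0.57). Over the 4113 genes at or above 10 FPKM on average, r was 0.33 and 0.37, and rho was 0.50 and 0.46. By rank, the members were thus closer to these genes than by r. The 4113 were filtered by mean level and not by libraries at 0. These correlations are across genes that share their libraries, and are given as a description.

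Called members had a median GC content of 44.8% and members not called 50.6%. In bounds set after the values were seen, the 8 members at a GC content of 55% or more (ATP5D, ATP5I, CYC1, NDUFB11, NDUFB7, NDUFS6, NDUFV1 and SDHAF1) all had replicate 1 highest in both lines, and 0 of them were called. Their median SE was 0.57, against 0.11 for the 12 members under 45%, of which 6 were called, where 32.5% of all tested genes were. The median difference of the 8 members at 55% or more was 0.67 between the replicate 1 libraries and -0.49 between replicates 2 and 3. Of these, 5 of the 8 had the same sign in both, and NDUFB11, NDUFB7 and NDUFS6 turned. The labels name no batch, and the part of GC content in the calls was not tested.

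**Figure D4:**
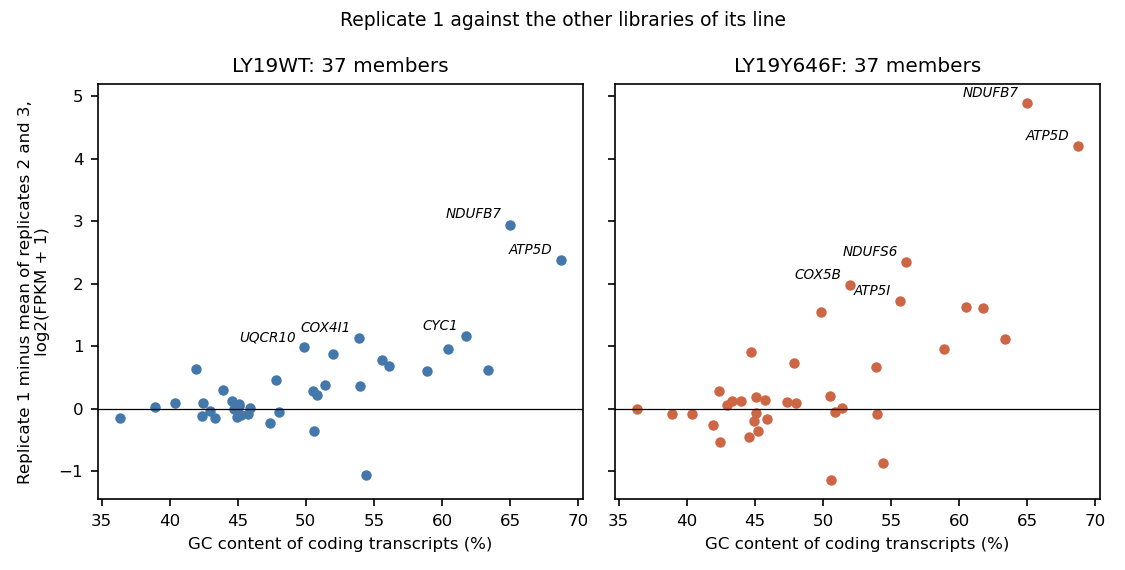
Replicate 1 minus the mean of replicates 2 and 3 on the log2(FPKM + 1) scale against the GC content of coding transcripts in percent, for 37 members, in LY19WT and in LY19Y646F. The 8 members at 55% or more all lie above 0 in both lines, and members of lower GC content lie on both sides of 0.

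Fits chosen after this was seen kept most calls. With replicates 2 and 3 only, 15 members were called higher and 4 lower, where 20.9% and 21.4% of all genes were. Of the 11 called higher with all libraries 10 were among the 15, NDUFB3 was not, and ATP5B, COX7B, NDUFA6, NDUFA8 and SDHA were added. The 4 lower were NDUFB1, NDUFB4, NDUFV1 and ATP5D. With replicate 1 as a term in the model, all 11 stayed among 18 called higher, NDUFB1 was the 1 called lower, and the background was 21.5% and 21.2%.

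The other genes of the pathway, from lists drawn up by function, held 40 tested genes, of which 12 were called higher and 1 lower, where 16.3% and 16.2% of all tested genes were. Their median difference was 0.35 against -0.02 over all tested genes. Of 8 carriers and subunits outside the name rule, 3 were called higher. Cytochrome c (CYCS), the carrier between complexes III and IV, was at 279, 275 and 296 FPKM in LY19WT and 464, 480 and 442 in LY19Y646F, without overlap (difference 0.70, limma adjusted p = 0.0016). C14orf2, a small ATP synthase subunit, differed by 0.37 (adjusted p = 0.026), and SLC25A3, the mitochondrial phosphate carrier, by 1.26 (adjusted p = 0.043). The call of C14orf2 was lost without any single library other than LY19Y646F replicate 1, and that of SLC25A3 without any other than LY19WT replicate 3, with adjusted p up to 0.087 and 0.12. ETFA, an electron transfer flavoprotein subunit, differed by -0.49 and was not called.

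Of 18 tested assembly factors outside the name rule, 8 were called higher and 0 lower by limma, where 16.3% and 16.2% of all tested genes were. The 4 with the smallest adjusted p were TIMMDC1, a complex I assembly factor (81.5 ± 7.52 to 155 ± 2.97 FPKM, SD, n = 3; limma adjusted p = 0.0014), TMEM70, which serves ATP synthase assembly (difference 0.95, adjusted p = 0.0033), COA6, which acts in copper delivery to complex IV (0.99, adjusted p = 0.0041), and COX15, which makes heme a (0.76, adjusted p = 0.0055). COX10, COX11, LYRM4 and COA1 were the others. The call of COX11 was lost without any single library other than LY19Y646F replicate 1, that of LYRM4 without LY19WT replicate 2 or 3 or LY19Y646F replicate 2, and that of COA1 without LY19WT replicate 3 or LY19Y646F replicate 2 or 3. ACAD9, another complex I assembly factor, differed by -2.32 and was not called (adjusted p = 0.15).

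Of 14 tested regulators of respiratory gene transcription, 1 was called higher and 1 lower, where 16.3% and 16.2% of all tested genes were. PPARGC1B, a coactivator of NRF1 and of estrogen-related receptors, was at 3.86, 4.18 and 4.43 FPKM in LY19WT and 11.5, 13.3 and 13.1 in LY19Y646F. Its level was 4.16 ± 0.286 FPKM against 12.6 ± 0.981 (SD, n = 3), called higher without overlap ( limma adjusted p = 0.00068). GABPB1, the beta subunit of GABP, was at 20.3, 24.8 and 26.3 FPKM against 13.0, 16.3 and 15.8, called lower by limma (difference -0.63, adjusted p = 0.027), a call lost without replicate 2 or 3 of either line. Its partner GABPA differed by 0.46 (adjusted p = 0.063) and passed without LY19WT replicate 3 (limma adjusted p = 0.033). TFB2M, a mitochondrial transcription factor, differed by 0.47 (adjusted p = 0.073) and NRF1 by -0.20 (adjusted p = 0.38). The mitochondrially encoded subunits were not analysed here.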

How the data were processed

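RNA libraries of LY19WT and LY19Y646F, 3 each, were prepared with a stranded mRNA kit from 2500 ng RNA and read to 85 nucleotides, per the labels' protocols. STAR 2.5.3a, Cufflinks 2.2.1, Cuffdiff 2.2.1 and build hg19 are named in the submitters' processing notes. The deposited values are FPKM per assembled locus and library, per the file headers, with no counts. The authors' table of the comparison holds 1 FPKM value for each line and the log2 fold change between them, without replicates. Rows without a gene name were 20.1% to 26.2% of each library. In all, 7282 symbols that share a row with another coding gene, or have a row of failed status, in any library were not read, leaving 49269.

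Differences were tested with limma 3.58.1 in R 4.3.3 (lmFit, eBayes with trend, two-sided) on log2(FPKM + 1), for the 11370 genes that averaged 0.5 FPKM or more, with Benjamini-Hochberg adjustment; the script was tested on simulated data. An exact permutation test of 3 against 3 libraries cannot go below 0.1 and was not used. Gene types and GC content came from GENCODE 29, and promoters from RefSeq. Named are all called members, the most abundant member of each complex, paralog pairs, merged members and up to 4 genes of each other list by adjusted p. Others, among them those near the threshold or high in replicate 1, were chosen after their values were seen. The members and lists were chosen with earlier results of these data known. The alternatives were the pseudocount, the filter, scaling, library weights, a replicate block, the reading of merged rows and leaving out each library. The values of 1 member in a merged row are not reported here.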

Additional observations from a re-analysis of the deposited data

How the results depend on the processing

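Of the 12 called members, 9 kept their call and direction in every setting in which they were tested (SDHB, NDUFAF4, NDUFA4, ATP5H, UQCRFS1, UQCRB, NDUFB1, NDUFA12 and NDUFAF2; ATP5H and NDUFAF2 were not readable where a gene had to be alone in its row). Beside the losses given above, ATP5G1 lost its call with the replicate block (adjusted p = 0.051), COX6C with median scaling (0.060) and with no filter on low values (0.064), and NDUFB3 with quantile scaling (0.059), all in limma. Leaving out 1 library at a time gave 8 to 13 members called higher and 1 to 2 lower (2, NDUFB1 and NDUFB4, without LY19Y646F replicate 1).

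With library weights, 18 members were called higher and 3 lower, against 3075 and 2917 of all genes. With replicate 1 of both lines as a term, an alternative chosen after seeing the data, 18 were higher; with replicates 2 and 3 only, also chosen then, 4 were lower. The 40 tested genes of the other respiratory lists had 20 higher with weights, where 27% of all genes were, and 7 (without LY19Y646F replicate 2) to 13 when 1 library was left out; with quantile or median scaling, or a gene alone in its row, they had 8. Their lower count was 2 with quantile scaling, with the block and with replicates 2 and 3 only, 3 with median scaling, merged rows and the replicate 1 term, 5 with weights, and 0 where a gene had to be alone in its row; 0 to 1 when a library was left out. Median scaling moved the median of all genes from -0.02 to -0.12 and that of the members from 0.41 to 0.31.

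The median of complex I was 0.33 over 22 subunits in the authors' table. Over the 14 tested subunits it was -0.22 to 0.10 when 1 library was left out, so these values differ in the genes as well. That of complex III was 0.31 with quantile scaling. That of complex V was 0.60 with a filter at 2 FPKM, 0.31 with median scaling, 0.64 with merged rows, 0.22 alone in the row, 0.29 with replicates 2 and 3 only, and 0.23 to 0.47 when a library was left out. The filter, merged rows and a gene alone in its row also change which members enter. In all, 11 tested members turned sign in at least 1 setting, none of them called. They were ATP5L2 (0.17 with quantile scaling), NDUFB9 (-0.085 with quantile and -0.045 with median scaling), COX7A2L (-0.062 to 0.055 when a library was left out) ATP5S, listed at 0 in 4 libraries (-1.96 with weights, -1.69 with replicates 2 and 3 only, -1.13 to 1.54 when a library was left out), NDUFS4 (0.05 with replicates 2 and 3 only, and 0.02 without LY19Y646F replicate 1), and COX5B, CYC1, NDUFB11, NDUFB7, NDUFS6 and UQCR10, which turned only when a library was left out. The causes were not tested.

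The replicate numbers were not shown to pair the libraries: deviations of same-numbered libraries correlated at 0.25, 0.08 and 0.11. Between replicate 1 of 1 line and replicates 2 and 3 of the other they correlated at -0.18 to -0.10. Deviations are taken from the mean of each line, so these negative values largely follow from the 0.25 between the replicate 1 libraries. Replicates 2 and 3 across the lines gave 0.05 and 0.12, much as the same-numbered ones of these did. With the replicate block 12 members were called higher and 1 lower, 10 of the 12 shared with the calls above, and all genes gave 1952 higher and 1971 lower, against 1855 and 1837. Depth is unknown, so precision rests on 3 libraries per line.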

Other observations

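Rows of pseudogenes named after members numbered 98 symbols for 24 members. Their summed level was at most 1.56% of the parent's for each called member except UQCRFS1. ATP5E, the epsilon subunit of the ATP synthase, had pseudogene rows at 3.06% of its level in LY19WT and 16.1% in LY19Y646F. ATP5S, a factor for ATP synthase coupling, was at 0, 9.43 and 0 FPKM in LY19WT and 23.4, 0 and 0 in LY19Y646F, where the authors' deposited table gives 10.6 and 16.3 FPKM. NDUFV3, a complex I subunit, was at 14.9, 20.6 and 3.89 FPKM against 0, 3.19 and 14.3. The antisense RNA NDUFB2-AS1 is listed at 0 in all 6 libraries.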
